A study of Mus musculus with 4 samples.

Results

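Rod photoreceptors convert light into an electrical signal through a G protein and a phosphodiesterase, and the 6 genes described here encode their subunits. Gnat1, Gnb1 and Gngt1 encode the alpha, beta and gamma subunits of rod transducin. Pde6a and Pde6b encode the alpha and beta catalytic subunits of the rod cGMP phosphodiesterase (PDE6), and Pde6g encodes its inhibitory gamma subunit. They were chosen by name, as the subunits of these complexes, with earlier results of these data known. Each had a single row in the table of every library, so that they were 6 of 23021 rows and 6 of the 21832 gene symbols analysed. Poly(A) RNA was sequenced from mouse retina at postnatal day 12 on the slc:ICR background, and FPKM, the fragment number scaled to transcript length and to the mapped total of the library, was deposited for each gene. Dissociated retinas were sorted with an antibody to Cd73, a surface enzyme of rods and their precursors encoded by Nt5e, into a positive (Cd73P) and a negative (Cd73N) fraction. Each fraction came from wild-type (WT) retina of normal littermates and from retina labelled Ezh2-cKO, which came from a cross of Ezh2-floxed mice with DKK3-Cre mice that express Cre in retinal progenitors, and hence in an ancestor of neurons and Müller glia alike. Ezh2 encodes the catalytic subunit of Polycomb repressive complex PRC2. There was 1 library for each of the 4 groups, so there was no replicate check, no test between groups was possible, and every error given below is a counting error within a library. How many retinas were pooled at this age was not given in the sources used here. The mice were stated to be free of rd1, a mutation of Pde6b.

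In a rod, light makes the transducin alpha subunit exchange GDP for GTP and part from its beta and gamma subunits. The GTP-bound alpha subunit binds the PDE6 gamma subunits and so releases the catalytic alpha and beta subunits, which hydrolyse cGMP and let the cGMP-gated cation channels close. Loss of either catalytic subunit leads to retinal degeneration, and loss of Gnat1 leaves rods unresponsive to light. Gnb1 differs from the others in that many cell types use it. Cones hold their own set of subunits, encoded by Gnat2, Gnb3, Gngt2, Pde6c and Pde6h.

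Sequences upstream of the transcription start are shown because the homeodomain factor CRX and the leucine zipper factor NRL are known to act at promoters of rod genes. RefSeq windows on build GRCm38.p6, which is another build than the mm9 build of the expression tables, were matched by symbol for 3 of the 6 genes, and the 250 bases before the start were searched on both strands for TAATCC, a CRX- or OTX-type core, and for TGCTGAC, which is part of the site that NRL binds. Neither motif is contained in the other, and a match is printed in capitals within each sequence, which runs 5′ to 3′ towards the start of the gene on the plus strand. The windows lay at chr4:155491111-155491360 for Gnb1, at chr6:3993758-3994007 for Gngt1 and at chr5:108388123-108388372 for Pde6b.
Gnb1: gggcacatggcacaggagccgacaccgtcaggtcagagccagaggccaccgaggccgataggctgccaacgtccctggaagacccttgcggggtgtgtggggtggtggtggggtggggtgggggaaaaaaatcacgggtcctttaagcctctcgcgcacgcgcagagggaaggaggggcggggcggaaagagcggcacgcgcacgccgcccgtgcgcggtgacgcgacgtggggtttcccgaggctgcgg
Gngt1: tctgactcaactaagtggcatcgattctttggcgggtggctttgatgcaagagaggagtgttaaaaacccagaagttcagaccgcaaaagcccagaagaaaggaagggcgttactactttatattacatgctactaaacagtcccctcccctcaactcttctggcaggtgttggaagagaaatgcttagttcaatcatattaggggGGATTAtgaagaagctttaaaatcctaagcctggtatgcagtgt
Pde6b: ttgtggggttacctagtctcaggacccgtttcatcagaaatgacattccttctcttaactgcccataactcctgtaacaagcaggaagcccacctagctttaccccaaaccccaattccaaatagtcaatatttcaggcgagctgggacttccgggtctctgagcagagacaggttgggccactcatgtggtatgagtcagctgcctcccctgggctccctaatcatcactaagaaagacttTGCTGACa
Gngt1 held TAATCC on the opposite strand, read as GGATTA, at 44 to 39 bases before the start. Pde6b held TGCTGAC on the same strand at 8 to 2 bases before the start, and Gnb1 held neither in these 250 bases. Of 32851 RefSeq windows of this length, 6.25% held TAATCC and 3.81% held TGCTGAC on either strand.

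The libraries held about 45900000 and 55100000 mapped fragments in Cd73N (WT, then Ezh2-cKO) and 45600000 and 47200000 in Cd73P, as estimated from the smallest steps between low FPKM values. Nt5e, the gene of the sorted antigen, was at 0.844 and 0.609 FPKM in Cd73N and at 125 and 123 FPKM in Cd73P. Ezh2 itself went against the label in Cd73N, with 14.1 FPKM in WT beside 15.9 FPKM under the Ezh2-cKO label, while Cd73P held 5.38 and 3.45 FPKM. The tables hold no values per exon, so that a transcript without its floxed exons cannot be told apart from an intact one. Xist, which female cells express, was at 52.2, 240, 47 and 95.6 FPKM in Cd73N WT, Cd73N Ezh2-cKO, Cd73P WT and Cd73P Ezh2-cKO, and the sexes of the pooled animals were not given in the sources used here. Cone markers were 4721 FPKM in sum in Cd73N WT against 422 FPKM in Cd73P WT, and bipolar cell markers 2547 against 225 FPKM. The 12 rod markers used here summed to 16041 FPKM in Cd73P WT and to 1355 FPKM in Cd73N WT. All 12 were at least 1.5-fold higher in Cd73P WT, but to unlike degrees. Cd73N WT held 0.673% of the Cd73P level of Nt5e and 1.21% of that of Nr2e3, but 9.53% of Sag and 18% of Rcvrn. Rcvrn encodes recoverin, and the paper also names subsets of bipolar cells that are positive for recoverin.

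The first comparison asked where transcripts of the 6 subunits were found in the sort. All 5 subunits with a value in both WT libraries were higher in Cd73P, by 5.53-fold for Pde6g up to 78.5-fold for Pde6b as ratios of FPKM. In the libraries labelled Ezh2-cKO, all 6 were higher in Cd73P, by 6.85-fold for Pde6g up to 242-fold for Gnat1. Cd73N held at most 2.63% of the Cd73P level of Gnat1, Pde6a, Pde6b and, in Ezh2-cKO, Gnb1, but between 13.9% and 18.1% of that of Gngt1 and Pde6g. The sort selected rods, so a higher level of rod genes in Cd73P is what it was made to give, and in sorted bulk RNA fewer cells of a type and less RNA per cell cannot be told apart. Counts rest on a difference of 1.5-fold on the scale of log2(FPKM + 1), which 9.08% of 21705 genes passed in the direction of Cd73P in WT and 8.40% of 21704 genes in Ezh2-cKO. Among genes with at least 10 FPKM in either library the shares were 16.6% and 17.1%.

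**Figure D1:**
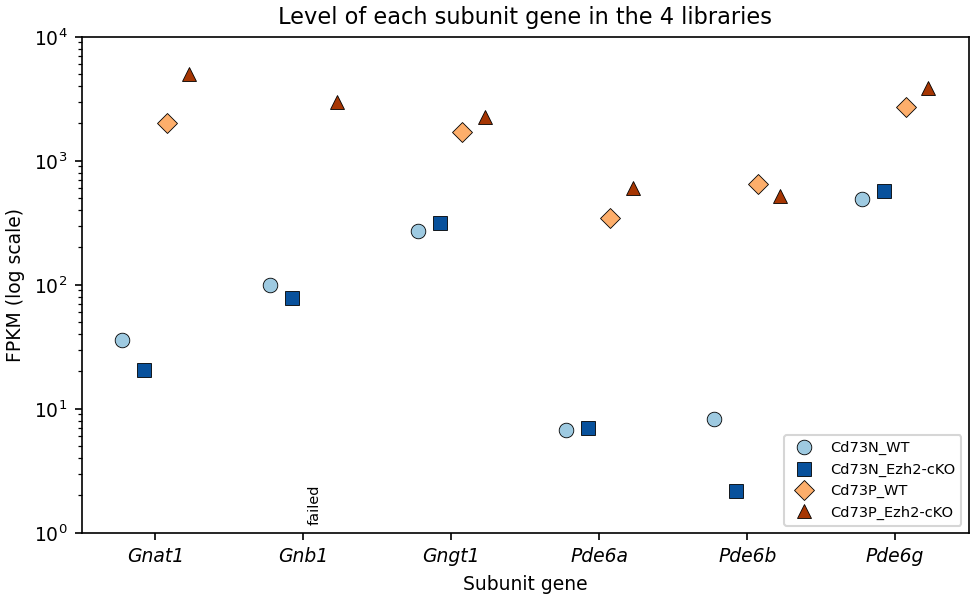
FPKM on a log axis of the 6 subunit genes in the 4 libraries, with 1 symbol per library. The Cd73P symbols lie above both Cd73N symbols for every gene with a value, the gap is narrowest for Gngt1 and Pde6g, and Gnb1 failed in Cd73P WT.

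Gnat1, the subunit that switches on PDE6, was at 36.2 FPKM in Cd73N WT, 20.6 FPKM in Cd73N Ezh2-cKO, 2016 FPKM in Cd73P WT and 4999 FPKM in Cd73P Ezh2-cKO. Cd73N thus held 1.8% of the Cd73P level in WT and 0.413% in Ezh2-cKO. The log2 ratio of Cd73P over Cd73N was 5.76 (counting SE 0.036) in WT and 7.85 (SE 0.037) in Ezh2-cKO. Among genes with at least 10 FPKM, 4 of 7124 had a higher ratio in WT and none (0) of 7297 in Ezh2-cKO. In rank of FPKM among genes with a usable value, Gnat1 was number 7 of 21715 in Cd73P WT and number 3 of 21719 in Cd73P Ezh2-cKO. The gene lies at chr9:107576805-107581923 on the minus strand of mm9.

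Gnb1 was at 99.9 FPKM in Cd73N WT, at 77.9 FPKM in Cd73N Ezh2-cKO and at 2962 FPKM in Cd73P Ezh2-cKO. In Cd73P WT its fit failed and the row was listed at 0, which is a failed estimate and not a level, so Gnb1 had no fraction comparison in WT and no genotype comparison in Cd73P. In Ezh2-cKO its log2 ratio of Cd73P over Cd73N was 5.23 (SE 0.017), and Cd73N held 2.63% of the Cd73P level. This subunit, with wide use outside rods, was 38-fold higher in the Cd73P than in the Cd73N library. Gnb1 ranked number 7 of 21719 genes in Cd73P Ezh2-cKO. It lies at chr4:154865470-154933378 on the plus strand.

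Gngt1, the gamma subunit that holds the transducin beta subunit at the membrane, was at 272 and 315 FPKM in Cd73N (WT, then Ezh2-cKO) and at 1700 and 2274 FPKM in Cd73P. Unlike Gnat1, it was among the more abundant genes of Cd73N, at rank 243 of 21715 in WT and 144 of 21711 in Ezh2-cKO. Cd73N held 16% of the Cd73P level in WT and 13.9% in Ezh2-cKO, and the log2 ratios of Cd73P over Cd73N were 2.64 (SE 0.02) and 2.85 (SE 0.018). It lies at chr6:3944012-3947436 on the plus strand.

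The catalytic subunits of PDE6 were the lowest of the 6 genes in every library, and Cd73N held 1.95% or less of their Cd73P level. Pde6a was at 6.81 and 6.96 FPKM in Cd73N and at 348 and 603 FPKM in Cd73P, with log2 ratios of Cd73P over Cd73N of 5.48 (SE 0.047) in WT and 6.25 (SE 0.043) in Ezh2-cKO. Pde6b was at 8.28 and 2.18 FPKM in Cd73N and at 650 and 522 FPKM in Cd73P, with log2 ratios of 6.13 (SE 0.054) and 7.36 (SE 0.064). The value of Pde6b in Cd73N Ezh2-cKO rested on about 312 fragments, the fewest of any value of the 6 genes, and its counting SE was 6.45% of the value. In WT only 2 of 7124 genes had a higher fraction ratio than Pde6b and 8 had a higher ratio than Pde6a. Pde6a lies at chr18:61380153-61449372 and Pde6b at chr5:108817392-108860761, both on the plus strand.

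Pde6g, the inhibitory subunit that keeps PDE6 silent in the dark, was at 495 and 567 FPKM in Cd73N and at 2736 and 3883 FPKM in Cd73P. Among genes with a usable fit it was number 3 of 21715 in Cd73P WT and number 4 of 21719 in Cd73P Ezh2-cKO, and in Cd73N it was at rank 100 and 47. The log2 ratios of Cd73P over Cd73N were 2.46 (SE 0.017) in WT and 2.77 (SE 0.014) in Ezh2-cKO. It lies at chr11:120308924-120314797 on the minus strand. No other row of the tables overlapped any of the 6 genes.

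The share left in Cd73N also differed widely across the other genes of the rod pathway. Of the 14 other genes of rod phototransduction, 13 were at least 1.5-fold higher in Cd73P in both genotypes, with a list median of 3.36 on the log2 scale in WT and 3.35 in Ezh2-cKO, against -0.49 and -0.40 over all genes with at least 10 FPKM. In WT, Cd73N held 0.945% of the Cd73P level of Cnga1, the alpha subunit of the rod cation channel, 1.54% of Slc24a1, the rod sodium, calcium and potassium exchanger, and 2.79% of Cngb1, the beta subunit of the channel, which lie beside Gnat1, Pde6a and Pde6b. It held 9.53% of Sag (rod arrestin), 14.4% of Gucy2e, a guanylate cyclase that remakes cGMP, and 18% of Rcvrn (recoverin), which lie beside Gngt1 and Pde6g at 16% and 18.1%. Above the range of the subunits in WT were Rgs9 at 18.3%, Rgs9bp at 26.1%, Gnb5 at 33.2% and Guca1a at 1012%. Rgs9 encodes the GTPase-activating protein that switches transducin off, and Rgs9bp and Gnb5 encode its partners. Set against the list median, Gngt1 and Pde6g stood at -0.72 and -0.89 on the log2 scale in WT and at -0.50 and -0.57 in Ezh2-cKO. Which cells gave the transcripts of Gngt1, Pde6g and these other genes in Cd73N was not tested, so the list median need not be a level of rods alone.

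**Figure D2:**
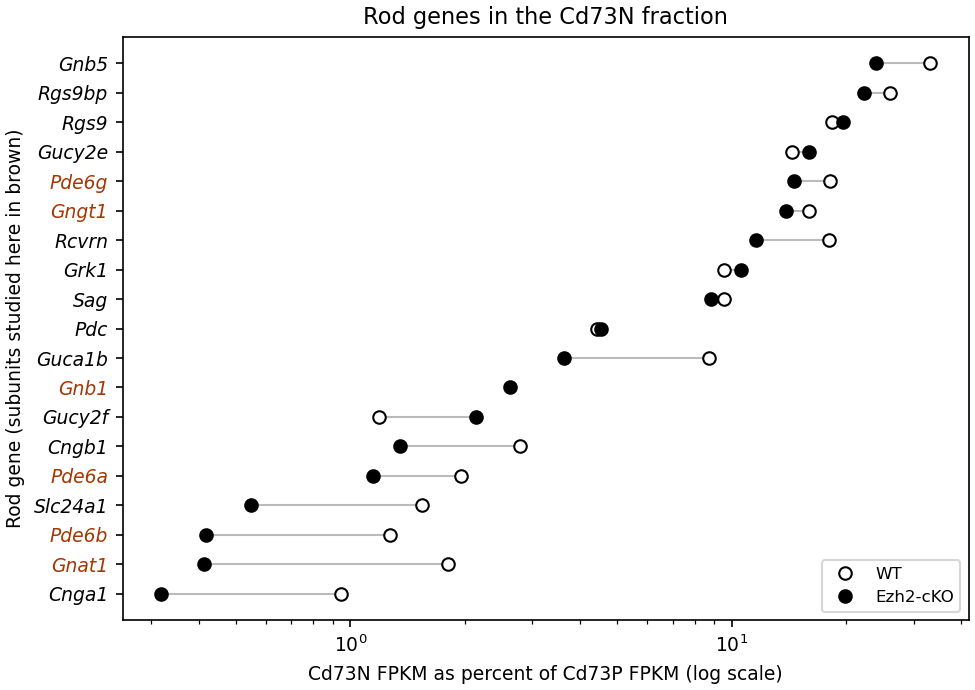
Cd73N FPKM as a percent of Cd73P FPKM on a log axis for the 6 subunit genes (names in brown) and 13 other rod phototransduction genes, with open circles for WT and filled circles for Ezh2-cKO. Gnat1, Pde6a and Pde6b lie near the bottom with Cnga1 and Slc24a1, Gngt1 and Pde6g lie near the top with Rcvrn and Gucy2e, and Gnb1 has no WT value. Guca1a, at 1012% and 740%, was left out of the plot.

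The cone subunits lay on the Cd73N side. All 5 were lower in Cd73P in both genotypes, with a median log2 ratio of -3.83 in WT and -5.33 in Ezh2-cKO, where 27.9% and 29.1% of all genes passed 1.5-fold in that direction. Guca1a, which encodes a guanylate cyclase activator of rods and cones, was the 1 other rod phototransduction gene that was lower in Cd73P, at 39.4 FPKM against 398 FPKM in Cd73N WT.

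The second comparison asked how the subunits differed between the genotypes within the rod-rich Cd73P fraction. In Cd73P, Gnat1 was 2.48-fold and Pde6a 1.73-fold higher in the library labelled Ezh2-cKO than in WT, Pde6g was 1.42-fold and Gngt1 1.34-fold higher, and Pde6b was the only subunit that was lower, at 0.803 times its WT level. On the log2(FPKM + 1) scale the ratios were 1.31 (SE 0.005) for Gnat1, 0.79 (SE 0.0089) for Pde6a, 0.51 (SE 0.0078) for Pde6g, 0.42 (SE 0.0097) for Gngt1 and -0.32 (SE 0.0095) for Pde6b. Of the 5 subunits with a value, 2 thus passed 1.5-fold upwards and none (0) downwards. Of 21707 genes, 2.26% passed upwards and 2.38% downwards, and of 5635 genes with at least 10 FPKM 3.25% and 2.06%. Scaled by housekeeping genes, Pde6g passed as well, at 0.62. The median of the 5 ratios was 0.51, beside -0.05 over those 5635 genes. Only 28 of the 5635 genes had a higher ratio than Gnat1, 110 had a higher ratio than Pde6a, and 526 had a lower ratio than Pde6b. Shares of the FPKM sum were taken over all analysed genes of every status, to which failed rows, listed at 0, added nothing. The 5 subunits with a value made up 2.42% in Cd73P WT and all 6 made up 4.76% in Cd73P Ezh2-cKO. These shares are therefore not over the same genes.

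The ratios of the catalytic subunits differed in sign: Pde6a was at 348 FPKM in WT and 603 FPKM in Ezh2-cKO, and Pde6b at 650 and 522 FPKM, although their proteins pair in the same enzyme. With 1 library per genotype these differences have no measure of the spread between animals or sorts. Marker genes of other cells moved as well between the Cd73P libraries. The cone markers summed to 422 FPKM in WT and 200 FPKM in Ezh2-cKO (8 of 10 lower by 1.5-fold), the bipolar markers to 225 and 71.3 FPKM (10 of 12 lower) and the Müller glia markers to 276 and 452 FPKM (7 of 10 higher). Amacrine markers were at 29.3 and 24.8 FPKM, and ganglion cell markers, with Pou4f2 listed at 0 in WT, at 2.75 and 1.79 FPKM. The rod markers were at 16041 and 19670 FPKM in sum, with none (0) of the 12 past 1.5-fold. Their part in the values of the subunits was not tested.

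Other rod phototransduction genes leaned the same way as Gnat1, most of them by less. All 14 other rod phototransduction genes had a positive ratio in Cd73P, from 0.15 to 1.31 with a median of 0.40, but only 2 passed 1.5-fold. Scaling the libraries, which shifts Cd73P ratios by -0.11 to 0.06, turns none of these signs. Of the 5635 genes with at least 10 FPKM, 2331 had a positive ratio in Cd73P. The 2 genes past 1.5-fold were Guca1b and Guca1a. Guca1b encodes a guanylate cyclase activator and was at 181 FPKM in WT and 450 FPKM in Ezh2-cKO (log2 ratio 1.31, SE 0.021). Guca1a was at 39.4 and 70.3 FPKM (log2 ratio 0.82). Set against the median of 0.40 of these genes, Gnat1 stood at 0.91 and Pde6a at 0.39, which no longer passed 1.5-fold, while Pde6b stood at -0.72 and passed it downwards. Of the 8 rod transcription factors, 1 passed 1.5-fold, which was Esrrb, an orphan nuclear receptor of rods, at 124 and 210 FPKM (log2 ratio 0.76). Nrl, which sets rod fate, was at 1377 and 1615 FPKM, Crx at 1038 and 909 FPKM, and Nr2e3, the nuclear receptor that represses cone genes in rods, at 1392 and 1117 FPKM. The ratio of Nr2e3 was -0.32, the same as that of Pde6b to 2 decimals.

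The cone counterpart of each subunit was lower in Cd73P Ezh2-cKO than in Cd73P WT, and 4 of the 5 passed 1.5-fold. The cone transducin subunits were at 17.4 and 8.25 FPKM for Gnat2, at 166 and 83.6 FPKM for Gnb3 and at 90.2 and 29.8 FPKM for Gngt2, in WT and Ezh2-cKO. The log2 ratios were -0.99, -0.98 and -1.57. The catalytic subunit of cone PDE6, Pde6c, was at 3.86 and 2.85 FPKM (-0.34), and its inhibitory partner Pde6h, just past the threshold, at 70.8 and 46.7 FPKM (-0.59). No scaling shift in Cd73P (-0.11 to 0.06) turns the sign of any of the 5, but with scaling by the median ratio (-0.04) or by housekeeping genes (-0.11) Pde6h no longer passes. In Cd73P WT the rod alpha subunit of transducin was thus at 2016 FPKM beside 17.4 FPKM for the cone alpha subunit.

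**Figure D3:**
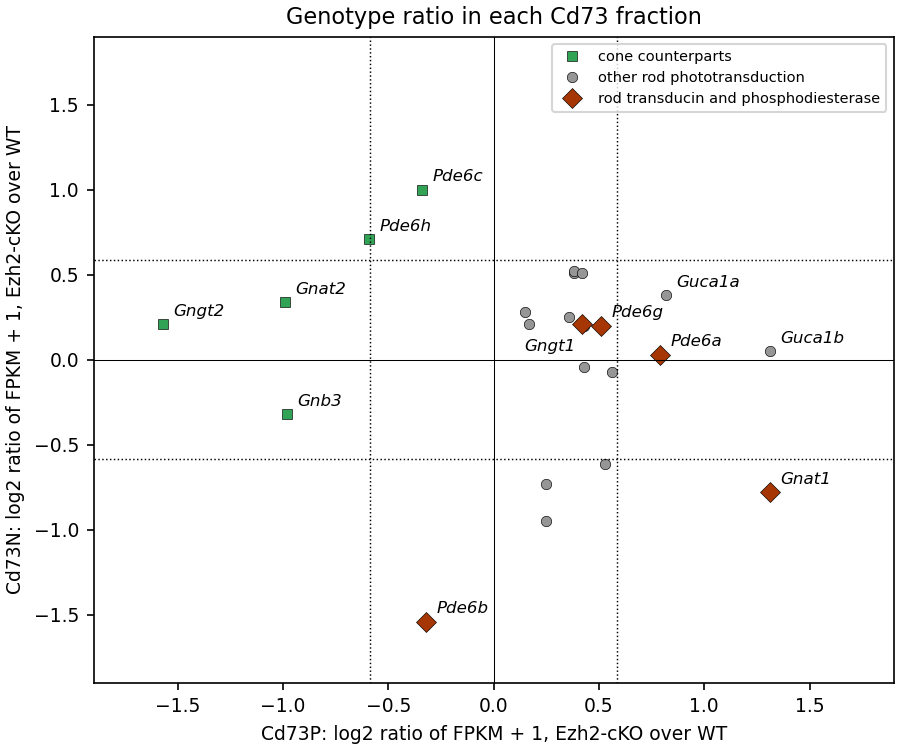
Log2 ratio of FPKM + 1, Ezh2-cKO over WT, in Cd73P (horizontal) and in Cd73N (vertical) for rod subunits (diamonds), their cone counterparts (squares) and other rod phototransduction genes (circles), with dotted lines at 1.5-fold. Gnat1 lies at 1.31 and -0.78, Pde6b at -0.32 and -1.54, the other 3 rod subunits with both values lie at or above 0 on both axes, and every cone subunit lies left of 0.

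The third comparison was that of the genotypes among the other retinal cells. In Cd73N, Pde6b was 3.79-fold lower in the library labelled Ezh2-cKO (8.28 and 2.18 FPKM) and Gnat1 was 1.75-fold lower (36.2 and 20.6 FPKM). The other 4 subunits stayed within 1.5-fold: Gnb1 was at 99.9 and 77.9 FPKM, Gngt1 at 272 and 315 FPKM, Pde6a at 6.81 and 6.96 FPKM and Pde6g at 495 and 567 FPKM. The log2(FPKM + 1) ratios were -1.54 (SE 0.084) for Pde6b, -0.78 (SE 0.051) for Gnat1, -0.35 (SE 0.023) for Gnb1, 0.03 (SE 0.064) for Pde6a, 0.20 (SE 0.02) for Pde6g and 0.21 (SE 0.025) for Gngt1. So 2 of 6 subunits passed 1.5-fold downwards and none (0) upwards, where 1.71% of 21706 genes passed downwards and 7.18% upwards, and 3.64% and 8.06% of 6864 genes with at least 10 FPKM. Among the 6864 genes, 11 had a lower ratio than Pde6b and 81 a lower ratio than Gnat1. Both subunits that were lower were among those with the smallest share in Cd73N, but Pde6a, which was among them too, was at like levels in both genotypes. Scaled by housekeeping genes, Gnat1 stood at -0.49 and no longer passed, and with a pseudocount of 5 in place of 1 the ratio of Pde6b was -0.89. The median over the 6 subunits was -0.16, equal to the -0.16 over those 6864 genes.

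Several other rod genes were lower in Cd73N Ezh2-cKO too. In WT and Ezh2-cKO, Nrl was at 27.7 and 11 FPKM in Cd73N, Nr2e3 at 16.8 and 5.09 FPKM and Cnga1 at 4.25 and 1.71 FPKM. Of the 14 other rod phototransduction genes, 3 passed 1.5-fold downwards (Cnga1, Cngb1 and Slc24a1) and none (0) upwards, while the list median was 0.20. Of the 8 rod transcription factors, 4 passed downwards as well (Nrl, Nr2e3, Esrrb and Otx2), and the median of the 8 was -0.43. Otx2, at 388 and 224 FPKM, was not a gene of Cd73P alone. Cd73N held 118% of its Cd73P level in WT and 99.7% in Ezh2-cKO. In the same libraries the Müller glia markers summed to 1263 FPKM in WT and 5996 FPKM in Ezh2-cKO, with all 10 higher by 1.5-fold. The bipolar markers summed to 2547 and 1505 FPKM (7 of 12 lower), the cone markers to 4721 and 6078 FPKM (3 of 10 higher), the rod markers to 1355 and 1344 FPKM (4 of 12 lower), the amacrine markers to 32.5 and 78.6 FPKM (2 of 6 higher) and the ganglion cell markers to 15.7 and 42 FPKM (2 of 8 higher and 1 lower). Their part in the lower values of Pde6b and Gnat1 was not tested. In Cd73N the cone transducin subunits were at 294 and 372 FPKM for Gnat2, 913 and 729 FPKM for Gnb3 and 1103 and 1272 FPKM for Gngt2. Pde6c was at 68.1 and 137 FPKM and Pde6h at 1237 and 2018 FPKM, and both passed 1.5-fold upwards. Gnb3 was the 1 cone subunit with a negative ratio in Cd73N, at -0.32, where the bipolar marker list had a median of -0.70. Which cells gave the transcripts of Gnb3 was not tested.

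Set side by side, the genotype ratios of the subunits were higher in Cd73P than in Cd73N for all 5 genes with both values. The share of all genes with a higher ratio in Cd73P was not computed. Over genes with at least 10 FPKM the median ratio was also higher in Cd73P, at -0.05 against -0.16 in Cd73N. Scaled by the housekeeping list, Gngt1 stood at 0.53 in Cd73P and 0.52 in Cd73N. The difference of the log2 ratios was 2.09 (SE 0.052) for Gnat1, 1.23 (SE 0.084) for Pde6b, 0.76 (SE 0.064) for Pde6a, 0.31 (SE 0.022) for Pde6g and 0.21 (SE 0.027) for Gngt1. Gnat1 was the only subunit that passed 1.5-fold in both fractions, and it did so in opposite directions. Among the rod transcription factors Esrrb did so too, with ratios of 0.76 and -0.63. Other rod genes had differences of similar size, at 1.49 for Nrl, 1.27 for Guca1b, 1.23 for Nr2e3, 1.20 for Cnga1 and 1.14 for Slc24a1. Those of Grk1, Gucy2e, Gucy2f, Rgs9 and Pdc were negative, at -0.14 to -0.04. Of the rod transcription factors, Prdm1 (-0.35, SE 0.082) and Rorb (-0.48, SE 0.031) had negative differences too. The differences exceeded their counting errors, and no test of them over animals was possible. The cone counterparts had differences of the other sign, from -0.66 (SE 0.033) for Gnb3 to -1.77 (SE 0.083) for Gngt2.

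Ratios of subunits within a library do not depend on how libraries are scaled. FPKM is per length, so these ratios compare transcript levels between genes. Gngt1 was at 0.843 times the level of Gnat1 in Cd73P WT and at 0.455 times that level in Cd73P Ezh2-cKO, but at 7.51 and 15.3 times that level in Cd73N. Gnb1 was at 0.592 times the level of Gnat1 in Cd73P Ezh2-cKO, and at 2.76 and 3.77 times in Cd73N. The alpha subunit was therefore the most abundant transducin transcript in Cd73P of the genotype where all 3 had a value, and the least abundant in both Cd73N libraries.

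For PDE6 the balance of the catalytic subunits lay on either side of equality in the genotypes, in both fractions. Pde6b was at 1.87 times the level of Pde6a in Cd73P WT and at 0.865 times in Cd73P Ezh2-cKO, and at 1.22 and 0.313 times in Cd73N. On the log2 scale these ratios were 0.90 (SE 0.0096) and -0.21 (SE 0.0089) in Cd73P, and 0.28 (SE 0.081) and -1.67 (SE 0.11) in Cd73N. The inhibitory subunit was far above both catalytic subunits: Pde6g was at 7.85 and 6.44 times the level of Pde6a in Cd73P, and at 72.7 and 81.4 times in Cd73N. Between the complexes, Pde6a was at 0.173 and 0.121 times the level of Gnat1 in Cd73P, and at 0.188 and 0.337 times in Cd73N. In Cd73P the deposited FPKM of Gnat1, Gngt1, Pde6a, Pde6b and Pde6g lay above its own bounds, most so for the short Gngt1 and Pde6g. In Cd73P WT the bound midpoint over FPKM was 0.793 for Gngt1 and 0.777 for Pde6g. It was 0.91 for Gnat1, 0.931 for Pde6b and 0.955 for Pde6a. With the midpoint of the bounds as the level, Gngt1 was at 0.735 and 0.396 times Gnat1 in Cd73P, Pde6g at 6.39 and 5.24 times Pde6a, and Pde6b at 1.82 and 0.844 times Pde6a.

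**Figure D4:**
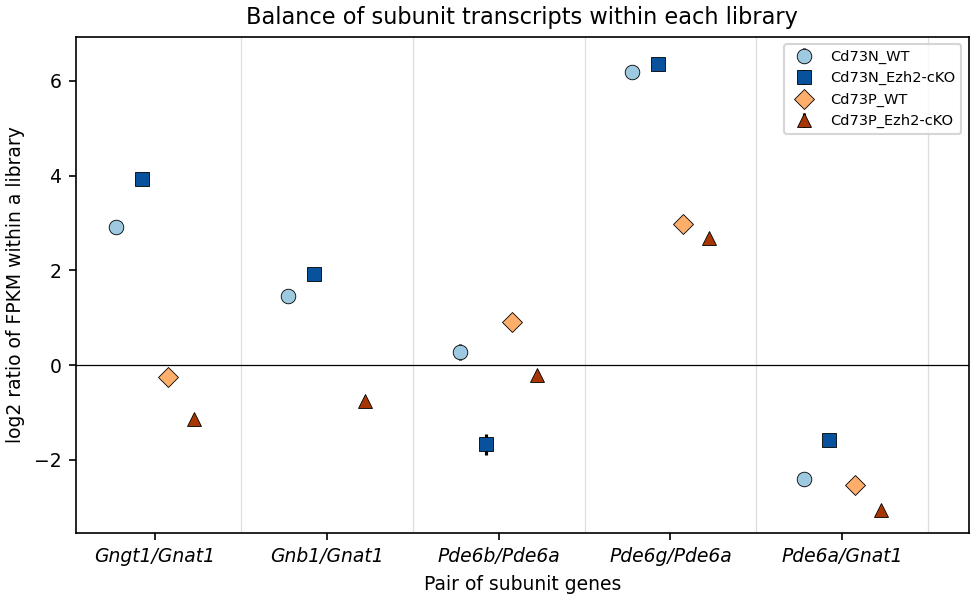
Log2 ratio of FPKM between 2 subunit genes within each of the 4 libraries, with bars of 2 counting SE that are mostly smaller than the symbols and a line at equal levels. Gngt1 over Gnat1 is above 0 in Cd73N and below 0 in Cd73P, Pde6b over Pde6a is above 0 in both WT libraries and below 0 in both Ezh2-cKO libraries, and Gnb1 has no value in Cd73P WT.

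The genes whose pattern over the 4 libraries was most like that of each subunit were found among 959 genes with at least 100 FPKM in 1 library, by the distance between log2 values centred on their own mean. With 4 libraries from 2 fractions this measure mostly follows the difference between fractions, and it describes these libraries only. The genes nearest to Gnat1 were Cnga1 (distance 0.79), Esrrb (0.83) and Slc24a1 (0.89), with a median of 7.64 over all 959. Those nearest to Pde6a were Esrrb (0.51), Slc24a1 (0.55) and Ppap2c (0.64), and those nearest to Pde6b were Nr2e3 (0.16), Nrl (0.60) and Cnga1 (0.64). Nr2e3 was at 16.8, 5.09, 1392 and 1117 FPKM in Cd73N WT, Cd73N Ezh2-cKO, Cd73P WT and Cd73P Ezh2-cKO, beside 8.28, 2.18, 650 and 522 FPKM for Pde6b. Gngt1 was nearest to Herc3 (0.10), 1810009A15Rik (0.14) and Rabgef1 (0.22), and Pde6g to 1810009A15Rik (0.14), Rabgef1 (0.16) and Agpat3 (0.19). Among the subunits themselves, Gngt1 and Pde6g were the closest pair, at 0.14, although they belong to different complexes. Gnat1 was at 1.16 from Pde6a and 1.27 from Pde6b, Pde6a and Pde6b were at 1.62 from each other, and either of Gngt1 and Pde6g was at 3.14 to 4.34 from each of these 3. Gnb1 was left out because it had values in 3 libraries only.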

How the data were processed

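Per the labels and the study's methods, the authors sequenced 36-base single-end reads (basecalling files converted with bcl2fastq 1.8.4, as named in the submitters' processing notes), aligned them with TopHat 2.0.8b to mm9 (coverage search on, at most 50 hits per read) and computed FPKM with Cufflinks 2.1.1. The deposited FPKM tables give each gene a value, a lower and an upper bound and a status. Strand use was not stated. No count or library total was used. Depth was inferred from low FPKM values of single-transcript genes, of which 70.6% to 73.7% lay within 0.15 of a whole fragment (30% if uniform). Starts were printed with 1 added, since 9811 of 20804 starts matched the GENCODE annotation of the same build that way and 632 as listed.

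Values of 234 symbols on several rows were added up, 726 symbols of small RNAs were removed, and a ratio was formed only where both libraries had the status OK. Failed rows, 10 to 19 per library, were listed at 0. Ratios are log2(FPKM + 1), which understates the change of low genes, and the threshold was 1.5-fold. Standard errors were the bound width divided by 4, over the bound midpoint, and cover counting error only. FPKM lay above its upper bound in 2492 to 3385 genes per library. Over 2613 single-transcript genes the midpoint over FPKM was within 5% of effective over full transcript length, at a 200-base fragment, for 80.4%. No p-value was computed, since each group had 1 library.

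The 6 genes and all gene lists (cone counterparts, other rod phototransduction, assembly and transport, other G protein subunits, rod transcription factors, housekeeping genes and markers of 6 cell types) were chosen with earlier results of these data known. Named were the 6 genes, Ezh2, Nt5e, all cone counterparts, list members with at least 10 FPKM that passed 1.5-fold between genotypes in Cd73P (at most 5 per list), and the 3 most alike genes per subunit. Further genes were named from the lists after their values were seen. Alternatives were pseudocounts of 0.1 and 5 and none, scaling by the median ratio, the FPKM sum or the housekeeping list, centring on the other rod phototransduction list, genes of every status, a 2-fold threshold and bounds that do not overlap. The bound midpoint as the level was added after the data were seen. The counting script was tested on simulated data. Python 3.11.15, numpy 2.4.6, pandas 2.3.3, scipy 1.17.1 and matplotlib 3.10.9 were used. The amacrine markers Tfap2a and Tfap2b were not used here, and 1 further gene that the lists and the naming rule held is not reported here.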

Additional observations from a re-analysis of the deposited data

Results flagged for a closer look

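Gnat1 was singled out because its genotype ratio had opposite signs in the fractions. It was higher in the library labelled Ezh2-cKO in Cd73P (2016 and 4999 FPKM in WT and Ezh2-cKO, log2 ratio 1.31) and lower in Cd73N (36.2 and 20.6 FPKM, log2 ratio -0.78). The difference of the ratios was 2.09 (counting SE 0.052). With 1 library per group this difference was not tested over animals, and marker sums of other cell types moved between the same libraries. Other rod genes had opposite signs too: Esrrb (0.76 and -0.63, past 1.5-fold in both fractions), Nrl (0.23 and -1.26), Cnga1 (0.25 and -0.95), Cngb1 (0.25 and -0.73), Slc24a1 (0.53 and -0.61), Mef2d (0.21 and -0.12), Rcvrn (0.56 and -0.07) and Gnb5 (0.43 and -0.04). Rorb had opposite signs in the other direction, at -0.14 in Cd73P and 0.34 in Cd73N. The share of all genes with opposite signs was not computed.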

How the results depend on the processing

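Pseudocounts of 0.1, 5 or none, scaling by the median ratio or the FPKM sum and the bound midpoint changed no sign or 1.5-fold call. This holds for the subunits with a value in each of the 4 comparisons. Genes of every status changed none either, but the failed Gnb1 value of Cd73P WT did not enter, so the subunit values were the same. A demand for bounds that do not overlap removed no call, and it could add none because the 1.5-fold threshold was kept. No paired analysis was possible because each group had 1 library, and no library could be left out. With a 2-fold threshold, 1 subunit (Gnat1) was higher in Cd73P Ezh2-cKO in place of 2, and 1 (Pde6b) was lower in Cd73N Ezh2-cKO in place of 2. Scaling by the housekeeping list left 1 subunit lower in Cd73N (Gnat1 stood at -0.49) and put Pde6g past 1.5-fold in Cd73P, at 0.62. Centring on the other rod phototransduction genes moved all values by 0.40 in Cd73P, where 1 subunit (Gnat1) was then higher and 1 (Pde6b) lower. In Cd73N, with a shift of 0.20, it changed no call but turned the signs of Pde6a (-0.17) and Pde6g (-0.01). For the fractions it moved them by 3.36 in WT and 3.35 in Ezh2-cKO: 3 subunits were then higher in Cd73P WT and 2 lower, with Gngt1 at -0.72 and Pde6g at -0.89, and in Ezh2-cKO Gngt1 stood at -0.50 and Pde6g at -0.57. Scaling by the median ratio, the FPKM sum and the housekeeping list subtracted -0.04, 0.06 and -0.11 in Cd73P, -0.06, -0.15 and -0.31 in Cd73N, -0.34, -0.43 and -1.29 between the WT fractions, and -0.27, -0.22 and -0.80 between the Ezh2-cKO fractions. The rod-centred shift follows from the construction of this setting. The ratio of Pde6b in Cd73N was -0.89 with a pseudocount of 5 and -1.92 with none. The lowest value, that of Pde6b in Cd73N Ezh2-cKO, rested on about 312 fragments.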

Other observations

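Genes that fold, modify or carry the subunits were examined as a list. None (0) of the 18 assembly and transport genes passed 1.5-fold in either fraction, with a median log2 ratio of 0.02 in Cd73P and -0.34 in Cd73N, beside -0.05 and -0.16 over all genes with at least 10 FPKM. In Cd73P WT and Ezh2-cKO, Aipl1, the chaperone that PDE6 needs, was at 585 and 644 FPKM, Unc119, which carries the transducin alpha subunit, at 1536 and 1964 FPKM, and Pde6d, which carries prenylated PDE6 subunits, at 105 and 105 FPKM. The 8 measured subunits of the CCT chaperonin, which folds the transducin beta subunit, had negative ratios in Cd73N, from -0.34 for Cct6a to -0.56 for Cct5. In Cd73P their ratios were -0.33 to 0.20. Negative ratios were common in Cd73N, where 4783 of 6864 genes with at least 10 FPKM had one. The median of the housekeeping list there was -0.31. These genes were named after their values were seen.

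Among 12 other G protein beta and gamma genes, 1 was higher and 2 were lower in Cd73P Ezh2-cKO, with a median of -0.07. The higher one was Gnb4, which was low in both libraries (0.59 and 1.47 FPKM) and just past the threshold, at 0.64. The lower ones were Gng13, the gamma subunit of ON bipolar cells, at 35.3 and 7.06 FPKM, and Gng3 at 6.66 and 2.72 FPKM. In Cd73N, 4 were higher and 2 lower, with a median of 0.12, and Gng13 was at 326 and 216 FPKM. Over all genes, 2.26% passed 1.5-fold upwards and 2.38% downwards in Cd73P, and 7.18% and 1.71% in Cd73N. Gng13 also stood in the bipolar marker list, which was lower in both fractions.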
